A study of Mus musculus with 33 samples.

Results

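A set of 10 genes known as transcriptional targets of the tumour suppressor p53 was followed through whole embryonic mouse kidneys that differed in the dose of Six2: Phlda3, Sesn2, Cdkn1a, Mdm2, Ccng1, Bax, Bbc3, Pmaip1, Trp53inp1 and Eda2r. They were taken by symbol from the deposited table of read counts, which held all 10 of them among its 35349 gene symbols. The groups were wildtype, heterozygous and knockout kidneys at embryonic day 11.5 (E11.5; 6, 5 and 5 specimens) and wildtype and heterozygous kidneys at E15.5 (4 and 4). Six2 is a homeobox gene whose product holds nephron progenitors in an undifferentiated state. The allele, the strain, any agent shared by the groups and whether a specimen was 1 animal or a pool are not given in the sources used here. Specimens are called embryos in places below for brevity, which does not make them single animals.

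p53, encoded in the mouse by Trp53, is a sequence-specific transcription factor that is kept scarce by Mdm2 and Mdm4 and accumulates after DNA damage, nucleolar stress or loss of its inhibitors. Its targets act on the cell cycle (Cdkn1a, Ccng1), promote cell death (Bax, Bbc3, Pmaip1), restrain growth signalling and metabolism (Sesn2, Phlda3, Trp53inp1) or feed back on p53 itself (Mdm2). In the developing kidney, p53 acts in the nephron progenitors, and excess p53 activity in that lineage is known to deplete it. Most of these genes also answer to other regulators, so their RNA levels are not a readout of p53 alone.

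The 33 libraries came from 24 specimens, since runs of the same specimen were summed, and held between 10.82 and 42.07 counts in units of 1e+06. Six2 itself, in CPM (counts scaled to 1e+06 per library), was at 19.5 to 33.1 in wildtype, 9.90 to 17.0 in heterozygous and 0.291 to 0.666 in knockout kidneys at E11.5. At E15.5 it was at 11.01 to 12.8 CPM in wildtype and 5.69 to 6.51 in heterozygous kidneys, so the levels followed the genotype labels at both stages. E11.5 libraries were labelled with 2 batches. In batch 1 the share of ribosomal RNA counts was 20.52 to 26.6% for wildtype, 3.575 to 18.71% for heterozygous and 0.8785 to 12.54% for knockout libraries, and in batch 2 it was 0.2227 to 0.4695%. Heterozygous replicate 1, the E11.5 embryo with a library in each batch, had 18.71% in batch 1 and 0.3573% in batch 2. Each E15.5 specimen had a library in both batches. One E11.5 library stood apart from the other 15 embryos: wildtype replicate 6, of batch 2, carried epidermal and spinal cord genes. Its summed CPM of Krt5, Krt14, Krt15, Trp63 and Perp was 108, against at most 9.85 in any other E11.5 embryo, and that of Lhx5, Neurog2, Dbx1, Foxb1 and Sox3 was 18.1 against at most 0.168. These markers were chosen after the embryo was seen to differ, and results that rest on it are given with and without it. The markers of nephron progenitors, ureteric bud, stroma, endothelium and blood cells that were examined were detected in every group.

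The members differed widely in level per transcript length. In wildtype kidneys at E11.5, Bax, the pore-forming death effector of mitochondria, was highest at 52.4 ± 7.39 CPM per kilobase (SD, n = 6). Phlda3, a pleckstrin-homology protein that competes with AKT for membrane lipids, followed at 22.5 ± 5.05 CPM per kilobase. Trp53inp1 (14.1 ± 3.89), a nuclear-body and autophagy protein, Mdm2 (13.9 ± 1.42), the ubiquitin ligase that destroys p53, and Ccng1 (13.9 ± 1.07), cyclin G1, lay within each other's spread in CPM per kilobase. So did Bbc3, the BH3-only death gene also called PUMA, at 6.05 ± 1.08 and Sesn2, sestrin 2, an inhibitor of mTORC1, at 5.54 ± 1.12. Cdkn1a, the cyclin-dependent kinase inhibitor p21, was far lower at 1.07 ± 0.382 CPM per kilobase. Eda2r, a receptor for ectodysplasin A2, stood at 0.750 ± 0.175 and Pmaip1, the BH3-only gene also called NOXA, at 0.247 ± 0.172. In knockout kidneys Phlda3 moved from place 2 to place 4, at 14.7 ± 1.89 CPM per kilobase (n = 5), among neighbours within its spread. Pmaip1 rested on 5 to 41 counts per E11.5 specimen, so its values carry the most counting error.

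The promoters of the members were searched for the p53 half-site, a motif of 10 letters with a fixed core, and for the full element of 2 such sites, since p53 binds such elements near several of its targets. RefSeq windows of 300 bases (GRCm38.p6, 250 before to 50 after an annotated start) were held for 8 members in 11 windows. An exact half-site on either strand was found for 4 of the 8 (Cdkn1a, Mdm2, Ccng1 and Bax), and 8.36% of all 32851 windows held one. A full element, with a spacer of at most 13 bases and at most 2 mismatches outside the core, was found for 3 (Cdkn1a, Ccng1 and Bax) and in 4.09% of all windows. The stretches that hold these matches are shown 5′ to 3′ on the strand of the gene. Capitals mark exact half-sites and both half-sites of each full element, mismatched ones included, and overlapping elements run together:
Cdkn1a, chr17:29090886-29090967, plus strand: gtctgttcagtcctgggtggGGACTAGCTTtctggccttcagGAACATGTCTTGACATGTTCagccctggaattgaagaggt
Mdm2, chr10:117710915-117710964, minus strand: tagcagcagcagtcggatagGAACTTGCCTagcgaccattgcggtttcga
Ccng1, chr11:40755442-40755506, minus strand: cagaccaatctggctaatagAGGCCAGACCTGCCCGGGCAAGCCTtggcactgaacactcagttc
Bax, chr7:45467059-45467134, minus strand: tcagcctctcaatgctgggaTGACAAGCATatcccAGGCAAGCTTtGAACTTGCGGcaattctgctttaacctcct
In the Cdkn1a stretch, 2 exact half-sites 12 bases apart span positions -73 to -42 from the annotated start of that window. The one nearer the start abuts another with 1 mismatch. Cdkn1a has a second window, around another annotated start (chr17:29093519-29093818), which held 0 half-sites and 0 full elements. The windows of Phlda3, Sesn2, Bbc3 and Eda2r held no exact half-site, which says only that these letters are not in these windows. The matches are descriptions of sequence, not sites of binding.

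**Figure D1:**
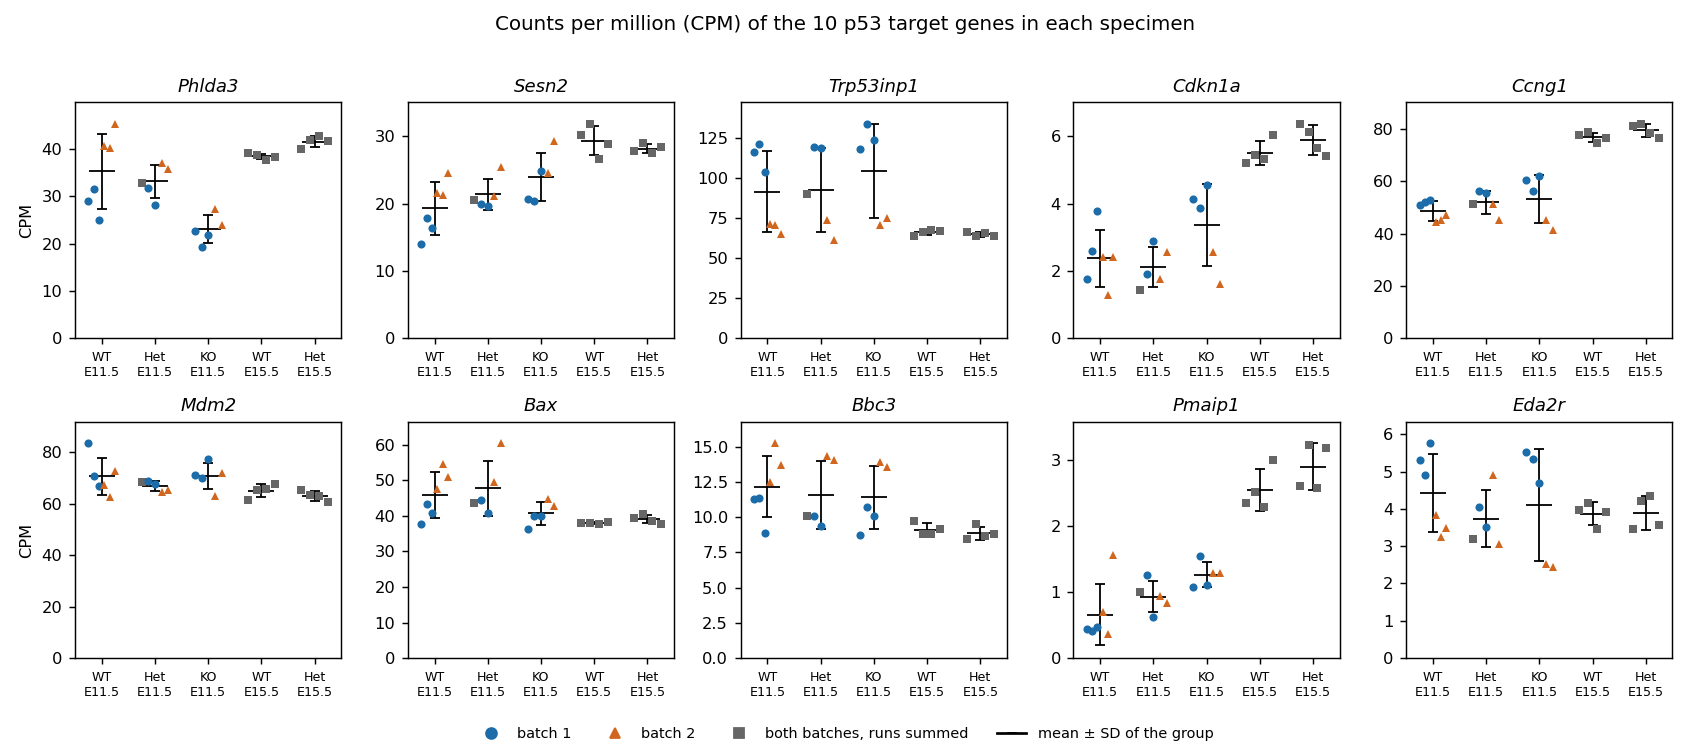
CPM (vertical axes, linear from 0) of the 10 genes in each specimen of the 5 groups (horizontal axes). Points are specimens, shaped and coloured by batch, and bars are group mean ± SD. Phlda3 is at 19.3 to 27.3 in the 5 knockout kidneys and at 24.9 to 45.2 in the 6 wildtype kidneys, with no overlap within a batch, and many genes separate by batch within E11.5.

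In knockout against wildtype kidneys at E11.5, Phlda3 fell, Sesn2 rose and the other 8 members did not pass the test, with edgeR's quasi-likelihood test adjusted over all 16141 genes tested. In that comparison 7.09% of all genes were called. The members and gene lists were chosen with earlier results of these data known. Counts set beside the share of all genes, here and below, are therefore descriptions and not tests. The median log2 difference of the 10 members was 0.03, against 0.00 for all genes tested, 5 members pointed up and 5 down, and 5 had an unadjusted p under 0.05. The share of all genes under that unadjusted limit is not given here, so such counts, here and below, have no background beside them. DESeq2 called the same 2 members, Phlda3 and Sesn2.

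Phlda3 (chromosome 1, 135766119 to 135769136, plus strand, mm10; ENSMUSG00000041801) was at 29.0, 31.5 and 24.9 CPM in the 3 wildtype kidneys of batch 1 and at 40.5, 40.0 and 45.2 in the 3 of batch 2. The knockout kidneys were at 22.6, 19.3 and 21.7 CPM in batch 1 and at 27.3 and 24.003 in batch 2. Heterozygous kidneys, at 31.8 and 28.2 CPM, lay among or above the wildtype in batch 1 and, at 37.0 and 35.7, between knockout and wildtype in batch 2, with 32.8 in the embryo run in both. Within each batch every knockout kidney was below every wildtype and every heterozygous one. Across batches the groups touch, since a batch 2 knockout kidney at 27.3 exceeds a batch 1 wildtype kidney at 24.9. The knockout level was 68.1% of wildtype (log2 difference -0.56 ± 0.08, SE; edgeR adjusted p = 0.000421) and 72.0% of heterozygous (-0.47 ± 0.09; edgeR adjusted p = 0.00669). The call against wildtype was kept in all 11 fits that left out 1 embryo, also without wildtype replicate 6 (-0.51 ± 0.08; edgeR adjusted p = 0.000712). The call against heterozygous kidneys was lost without knockout replicate 5 (edgeR adjusted p = 0.101), with batch left out of the fit (edgeR adjusted p = 0.163) and within batch 1 (-0.23 ± 0.17; edgeR adjusted p = 0.618) or batch 2 (-0.46 ± 0.09; edgeR adjusted p = 0.106). In batch 1 all heterozygous embryos were male and all knockout embryos female. The batch 1 fit could separate these 2 genotypes from sex only through the 3 wildtype embryos. Within batch 1 the difference from wildtype was -0.33 ± 0.10 (edgeR adjusted p = 0.164), and within batch 2 it was -0.69 ± 0.09 (edgeR adjusted p = 0.0109). With the title prefix of the E11.5 embryos as a block in place of batch, the difference from wildtype shrank to -0.15 ± 0.11 (edgeR adjusted p = 0.446) and that from heterozygous kidneys turned to 0.09 ± 0.13 (edgeR adjusted p = 0.686). The labels do not say what the prefix marks. Of the 5 knockout kidneys 3 carry a prefix that no other genotype has, so prefix and genotype are only in part separable. The prefix fit also holds no batch term. Knockout and heterozygous kidneys share only the prefix G4, which joins batch 1 heterozygous and wildtype kidneys to a batch 2 knockout kidney. The fit therefore cannot separate prefix from batch there.

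Sesn2 (chromosome 4, 132492032 to 132510501, minus strand; ENSMUSG00000028893) went the other way. Wildtype kidneys were at 13.9, 17.9 and 16.4 CPM in batch 1 and at 21.6, 21.3 and 24.5 in batch 2. Knockout kidneys were at 20.7, 20.4 and 24.8 CPM in batch 1 and at 24.5 and 29.2 in batch 2. Heterozygous kidneys lay between the others in batch 1, at 19.98 and 19.6, while in batch 2 one, at 21.2, was the lowest embryo of that batch and the other was at 25.4. The heterozygous embryo run in both batches was at 20.6. The batch 1 knockout kidneys were all above their wildtype counterparts, while in batch 2 the lowest knockout and the highest wildtype kidney had nearly the same level. Sesn2 rose to 129% of wildtype (log2 difference 0.36 ± 0.09; edgeR adjusted p = 0.0155). Against heterozygous kidneys the difference was 0.23 ± 0.09 (edgeR adjusted p = 0.190), which did not pass. The call against wildtype was lost without knockout replicate 5 (edgeR adjusted p = 0.0771), in each batch alone (0.53 ± 0.14 and 0.26 ± 0.13; edgeR adjusted p = 0.0960 and 0.468) and with only the 2 genotypes in the fit (edgeR adjusted p = 0.0501). It was also lost with batch left out (edgeR adjusted p = 0.373), in embryos at or under 5% ribosomal RNA (0.26 ± 0.12; edgeR adjusted p = 0.379) and with the title prefix as a block (0.52 ± 0.15; edgeR adjusted p = 0.0736). The ribosomal share moved with genotype in batch 1, and its part in the Sesn2 difference was not tested beyond these fits. The call was kept without wildtype replicate 6 (0.42 ± 0.08; edgeR adjusted p = 0.00559). A gene annotated on the same strand, Gm12981, overlaps Sesn2.

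Sesn2 is also a target of ATF4, the transcription factor of the integrated stress response. Of the 13 genes of an ATF4 list, which holds Sesn2, it was the one called in knockout against wildtype kidneys. That 1 of 13 lies near the 7.09% of all genes called. The other 12, among them Atf4, Ddit3, Trib3, Asns and Chac1, did not pass, 5 of the 13 had an unadjusted p under 0.05, and the list's median log2 difference was -0.01. Its relatives Sesn1 and Sesn3 were not called, nor was the Phlda3 relative Phlda1: of 8 tested relatives of the members, 0 passed with edgeR and 4 had an unadjusted p under 0.05.

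**Figure D2:**
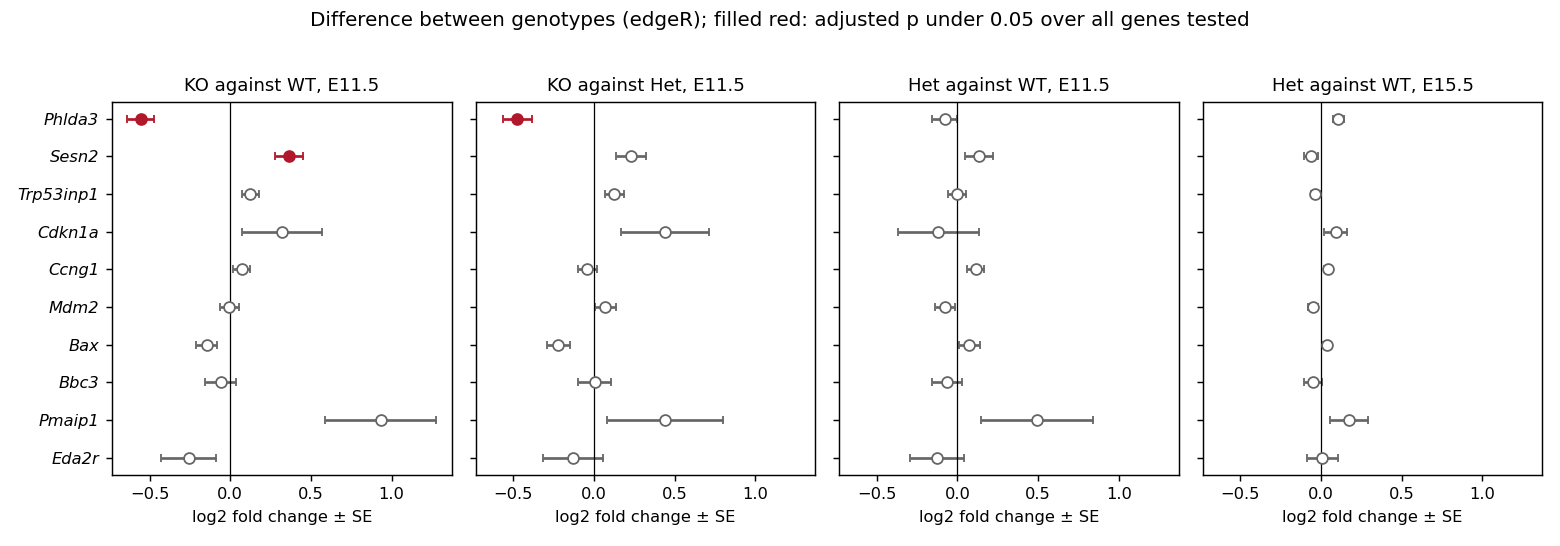
Log2 fold change ± SE (horizontal axes) of each of the 10 genes (rows) in the 4 genotype comparisons, from edgeR; filled red points passed an adjusted p of 0.05 over all genes tested. Phlda3 at -0.56 and Sesn2 at 0.36 are filled in knockout against wildtype, Phlda3 at -0.47 in knockout against heterozygous kidneys, and none in the heterozygous comparisons.

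Neither cell cycle gene, Cdkn1a or Ccng1, passed the test in knockout kidneys. Cdkn1a (chromosome 17, 29090976 to 29100727, plus strand; ENSMUSG00000023067) was at 1.77, 2.59 and 3.80 CPM in wildtype and at 4.15, 3.87 and 4.56 in knockout kidneys of batch 1. In batch 2 it was at 2.41, 1.29 and 2.41 in wildtype and at 2.58 and 1.63 in knockout kidneys. The 3 batch 1 knockout kidneys were thus the highest of all E11.5 embryos, and those of batch 2 lay among the wildtype values. The difference of 0.32 ± 0.25 did not pass (edgeR adjusted p = 0.525), at 20 to 81 counts per specimen. Ccng1 (chromosome 11, 40748552 to 40755311, minus strand; ENSMUSG00000020326) was at 48.8 ± 3.76 CPM (SD, n = 6) in wildtype and 53.2 ± 9.20 (n = 5) in knockout kidneys. Its batch 1 knockout kidneys, at 56.4 to 62.1, were above the batch 1 wildtype kidneys at 50.9 to 52.997, and those of batch 2, at 41.6 and 45.4, were not (overall 0.07 ± 0.05; edgeR adjusted p = 0.501). A gene of uncertain type on the opposite strand, AC167363.2, overlaps Cdkn1a.

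Mdm2 (chromosome 10, 117688875 to 117710758, minus strand; ENSMUSG00000020184), the feedback target, showed the smallest difference of the 10 members. It stood at 70.6 ± 7.21 CPM in the 6 wildtype, 67.0 ± 1.99 in the 5 heterozygous and 70.6 ± 5.11 in the 5 knockout kidneys, a difference of -0.01 ± 0.06 between knockout and wildtype (edgeR adjusted p = 0.974). Trp53 itself was at 65.4 ± 25.7 CPM in wildtype and 65.4 ± 14.2 in knockout kidneys (0.01 ± 0.10; edgeR adjusted p = 0.962). Its wide spread followed batch, and the knockout kidneys lay mostly below the wildtype in batch 1 and above it in batch 2, a contrast that was not tested. In batch 1 wildtype kidneys were at 83.1 to 96.1 CPM and knockout kidneys at 66.8, 70.3 and 83.2. In batch 2 wildtype kidneys were at 41.4 to 43.0 CPM and both knockout kidneys above them, at 44.1 and 62.4. Mdm4, the second inhibitor of p53, did not pass either (-0.02 ± 0.11; edgeR adjusted p = 0.947).

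Among the death genes, Bax (chromosome 7, 45461697 to 45466898, minus strand; ENSMUSG00000003873) was at 37.6, 43.3 and 40.8 CPM in wildtype and 36.3, 40.1 and 40.0 in knockout kidneys of batch 1. In batch 2 the wildtype kidneys were at 47.6, 54.7 and 51.1 and the knockout kidneys at 44.8 and 42.8. Bax therefore separated the genotypes in batch 2 and not in batch 1. The overall difference of -0.15 ± 0.07 did not pass (edgeR adjusted p = 0.218), nor did that from heterozygous kidneys of -0.22 ± 0.07 (edgeR adjusted p = 0.101). A protein-coding gene on the same strand, Gm45808, overlaps Bax. Bbc3 (chromosome 7, 16308393 to 16318205, plus strand; ENSMUSG00000002083) was at 12.2 ± 2.18 CPM in wildtype and 11.4 ± 2.24 in knockout kidneys (-0.06 ± 0.09; edgeR adjusted p = 0.784).

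Pmaip1 (chromosome 18, 66458533 to 66465565, plus strand; ENSMUSG00000024521) is a member whose call against wildtype was gained when 1 embryo was left out. The other 5 wildtype kidneys were at 0.441, 0.409, 0.475, 0.690 and 0.361 CPM, while wildtype replicate 6, the embryo with epidermal and spinal cord genes, was at 1.56. The knockout kidneys were at 1.08, 1.55, 1.11, 1.29 and 1.28 CPM and the heterozygous ones at 1.00, 1.25, 0.618, 0.931 and 0.836. Without replicate 6 every knockout kidney exceeded every wildtype kidney, while with it the highest value of all belonged to a wildtype kidney. With all embryos the difference was 0.93 ± 0.34 (edgeR adjusted p = 0.121). Without that embryo it was 1.41 ± 0.27 (edgeR adjusted p = 0.00397), which passed, and 3 of the 10 members were then called. The part of the epidermal and spinal cord genes in this value was not tested.

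Trp53inp1 (chromosome 4, 11156431 to 11174379, plus strand; ENSMUSG00000028211) was at 104 to 121 CPM in wildtype and 118 to 134 in knockout kidneys of batch 1, and at 64.8 to 71.5 and 70.8 to 75.3 in batch 2. The batches lay much further apart than the genotypes, whose difference of 0.12 ± 0.05 did not pass (edgeR adjusted p = 0.205). Eda2r (chromosome X, 97333840 to 97377216, minus strand; ENSMUSG00000034457) was at 4.42 ± 1.03 CPM in wildtype and 4.10 ± 1.51 in knockout kidneys (-0.26 ± 0.17; edgeR adjusted p = 0.435). In batch 2 both knockout kidneys, at 2.44 and 2.52 CPM, were below the wildtype kidneys at 3.25 to 3.84, while in batch 1 the genotypes overlapped. Neither batch alone passed (edgeR adjusted p = 0.844 in batch 1 and 0.597 in batch 2).

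Among the other genes of the pathway, the lowest adjusted p was in the BCL2 family. Bcl2, the founding inhibitor of mitochondrial cell death, fell from 116 ± 19.6 CPM in wildtype (n = 6) and 117 ± 21.0 in heterozygous kidneys (n = 5) to 64.5 ± 7.30 in knockout kidneys (n = 5). All 5 knockout kidneys, at 57.0 to 73.4 CPM, were below all 11 others, at 96.8 to 148. The difference from wildtype was -0.87 ± 0.08 (edgeR adjusted p = 4.22e-06) and from heterozygous kidneys -0.85 ± 0.09 (edgeR adjusted p = 4.38e-05). Bmf, a BH3-only gene that opposes Bcl2, rose from 172 ± 24.001 CPM in wildtype to 221 ± 44.5 in knockout kidneys (0.41 ± 0.06; edgeR adjusted p = 0.000391). These were the 2 of 12 other BCL2 family genes that passed, 1 in each direction, where 7.09% of all genes were called against wildtype. Of 27 other p53 targets tested, 1 passed, the polo-like kinase gene Plk2 (-0.22 ± 0.06; edgeR adjusted p = 0.0273), whose call was lost in 4 of 11 fits that left out 1 embryo. Of 19 genes of the p53 family and its regulators, 1 passed, Trp53bp2 (-0.23 ± 0.05; edgeR adjusted p = 0.00561), which encodes a p53-binding protein that promotes cell death. Of 4 other cyclin-dependent kinase inhibitors tested, 0 passed with edgeR against wildtype, 2 having an unadjusted p under 0.05. Against heterozygous kidneys, Cdkn1b, the inhibitor p27, rose (0.25 ± 0.05; edgeR adjusted p = 0.0152), with Bmf (0.34 ± 0.07; edgeR adjusted p = 0.00731), whose call was lost without knockout replicate 5 (edgeR adjusted p = 0.0848). The calls of Plk2, Trp53bp2 and Cdkn1b were lost in either batch alone, with batch left out and in embryos at or under 5% ribosomal RNA. That of Bcl2 against wildtype was kept in each of these fits, and that against heterozygous kidneys was lost in batch 1 alone (edgeR adjusted p = 0.166). In batch 1 the knockout embryos were all female and the heterozygous ones all male. Bmf was lost with batch left out, both against wildtype (edgeR adjusted p = 0.172) and against heterozygous kidneys (edgeR adjusted p = 0.485), and against the latter also in batch 1 alone and in embryos at or under 5% ribosomal RNA. For Bcl2, Bmf, Plk2, Trp53bp2 and Cdkn1b the fit with the title prefix as a block is not given here.

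**Figure D3:**
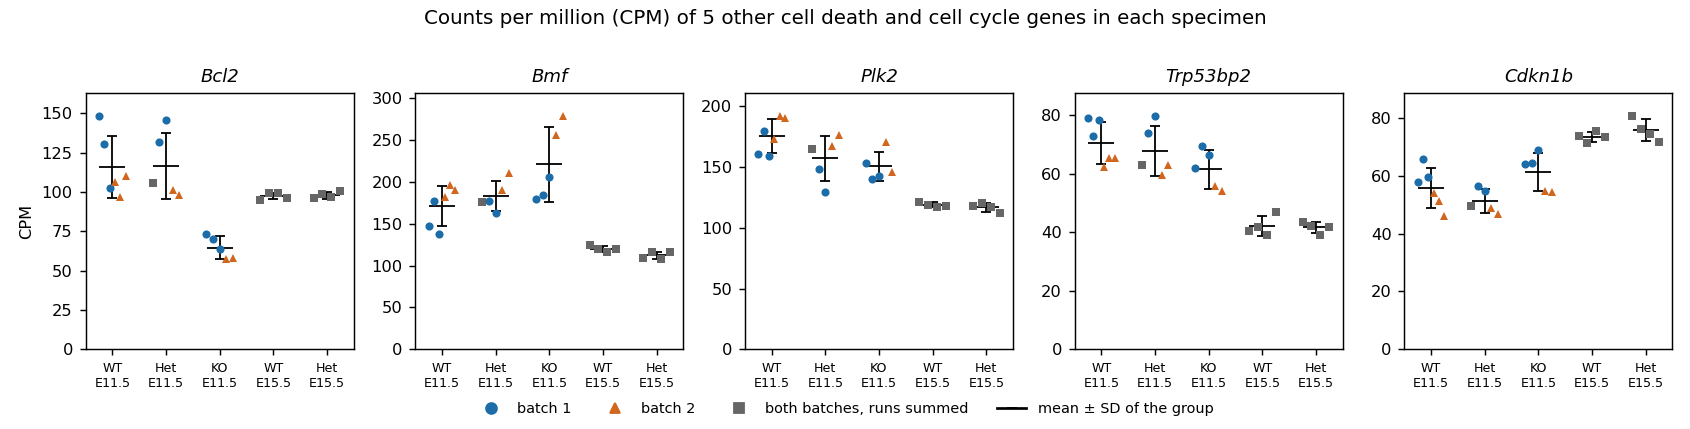
CPM (vertical axes, linear from 0) of Bcl2, Bmf, Plk2, Trp53bp2 and Cdkn1b in each specimen of the 5 groups (horizontal axes). Points are specimens by batch, and bars are group mean ± SD. The 5 knockout kidneys lie at 57.0 to 73.4 for Bcl2, below all other kidneys of E11.5.

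Knockout kidneys also differed in cell type markers, and in whole-organ RNA fewer cells of a type and less RNA per cell cannot be told apart. Of 10 nephron progenitor markers 8 were lower, and their summed level ran from 369 to 486 CPM in knockout kidneys, against 769 to 1178 in wildtype and 777 to 1054 in heterozygous ones. All 6 macrophage markers were higher, at a summed 86.6 to 191 CPM against 55.6 to 114 in wildtype kidneys. Of 7 ureteric bud markers 3 were higher, at a summed 316 to 444 CPM against 204 to 346. Beside these counts, 7.09% of all genes were called. In the other lists 1 of 5 stromal markers was higher. Lower were 1 of 2 tested skeletal muscle markers and 1 of 5 proliferation markers. Of 4 endothelial, 6 erythroid and 5 neuronal markers 0 passed. None of these markers was at 0 in all kidneys of a group. Their part in the changes of Phlda3, Sesn2 and Bcl2 was not tested. Over the 16 E11.5 embryos, after sex and batch were removed, the 3 genes whose log2 level ran most like Phlda3 were Tpbg, a membrane glycoprotein gene (Pearson r = 0.950), Bmp7, a growth factor that keeps nephron progenitors alive (0.948), and Fxyd6, an ion transport regulator (0.945). Genotype was not removed, and Phlda3 was taken because it had the lowest p in knockout kidneys. Genes that ran like it were therefore likely to be lower there too. The correlation is a description over embryos that share genotypes, batches and libraries. All 3 were lower in knockout kidneys, which that choice favours and which is no separate result. Bmp7, for 1, was at 82.3 ± 13.9 CPM in wildtype, 70.1 ± 5.87 in heterozygous and 41.3 ± 4.05 in knockout kidneys.

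Knockout against heterozygous kidneys gave 1 call in 10 members, Phlda3, where 3.69% of all genes were called. This comparison shares its knockout kidneys with the comparison above, so the 2 are not independent. DESeq2 made the same single call, and 4 members had an unadjusted p under 0.05.

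Loss of 1 copy of Six2 moved none of the 10 members past the threshold at either stage. At E11.5, 0 of 10 were called by edgeR and by DESeq2, and 0 had an unadjusted p under 0.05 with edgeR, where 0.0681% of all genes were called. Of the 10 members 9 differed by less than 0.2 on the log2 scale, and the exception was Pmaip1 (0.49 ± 0.35; edgeR adjusted p = 0.716). At E15.5, 0 of 10 were called by edgeR and by DESeq2, where 0.57% of all genes were called, and all 10 lay within 0.2 of no difference. One member, Phlda3, had an unadjusted p under 0.05 there. It was at 39.0, 38.6, 37.7 and 38.1 CPM in wildtype and at 39.8, 41.7, 42.7 and 41.6 in heterozygous kidneys. The groups did not overlap, and the small increase of 0.11 ± 0.03 failed the adjustment over all genes (edgeR adjusted p = 0.273). Of the other p53 targets, regulators, BCL2 family genes, kinase inhibitors, relatives and ATF4 genes, 0 were called by edgeR in the heterozygous comparisons at either stage, and 0 to 3 genes of a list had an unadjusted p under 0.05 with edgeR. DESeq2 called 0 of 82 such genes at E11.5 and 1 of 88 at E15.5, the serine synthesis gene Phgdh (0.10 ± 0.03; DESeq2 adjusted p = 0.0389), which edgeR did not call (edgeR adjusted p = 0.0999).

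The heterozygous effect did not differ detectably between stages for any member: 0 of 10 were called by edgeR and by DESeq2, and 0 had an unadjusted p under 0.05 with edgeR, where 0.00576% of all genes were called. For Phlda3 the effect was -0.08 ± 0.08 at E11.5 and 0.11 ± 0.03 at E15.5, a difference of 0.19 ± 0.10 (edgeR adjusted p = 1). For Sesn2 the corresponding effects were 0.13 ± 0.09 and -0.07 ± 0.04, and the difference was -0.21 ± 0.11 (edgeR adjusted p = 1).

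Between wildtype kidneys of E15.5 and E11.5, 7 of 10 members were called, near the 66.1% of all genes called in that comparison. Of these 4 rose and 3 fell. The sources used here do not say whether a batch number means the same at both stages, so stage and batch cannot be told apart.

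Cdkn1a and Ccng1 rose, as did Sesn2 and Pmaip1. Cdkn1a went from 1.29 to 3.80 CPM in the 6 E11.5 kidneys (median 2.41) to 5.20, 5.46, 5.34 and 6.04 at E15.5, with no overlap (1.27 ± 0.20; edgeR adjusted p = 9.56e-06). Ccng1 went from 44.3 to 52.997 CPM (median 49.0) to 77.5, 78.8, 74.8 and 76.5 (0.68 ± 0.05; edgeR adjusted p = 3.38e-11). Sesn2 went from 13.9 to 24.5 CPM (median 19.6) to 30.2, 31.9, 26.6 and 28.8 (0.61 ± 0.08; edgeR adjusted p = 6.33e-07). These 3 genes rose against the E11.5 embryos of either batch taken alone, by 0.94 and 1.42 for Cdkn1a, 0.55 and 0.79 for Ccng1 and 0.86 and 0.41 for Sesn2 in batches 1 and 2. Pmaip1 rose most, from 0.361 to 1.56 CPM (median 0.458) to 2.35, 2.51, 2.28 and 2.99 (1.93 ± 0.27; edgeR adjusted p = 1.12e-06; 2.37 ± 0.21 without wildtype replicate 6). All 4 E15.5 kidneys exceeded all 6 E11.5 kidneys for each of these genes.

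The other death genes fell. Bbc3 was at 8.90 to 15.2 CPM (median 11.9) at E11.5 and at 9.71, 8.77, 8.78 and 9.19 at E15.5 (-0.39 ± 0.09; edgeR adjusted p = 0.000434). Bax was at 37.6 to 54.7 CPM (median 45.4) and then at 37.9, 38.1, 37.7 and 38.4 (-0.24 ± 0.06; edgeR adjusted p = 0.00121). The E15.5 values of both genes lay at the low end of the E11.5 range and overlapped it through its batch 1 embryos. Against batch 1 alone the Bax call was lost (-0.13 ± 0.06; edgeR adjusted p = 0.0519), while that of Bbc3 was kept (-0.24 ± 0.10; edgeR adjusted p = 0.0478).

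For 4 other members the call changed with the batch of the E11.5 embryos. Trp53inp1, at 63.9, 66.6, 67.6 and 66.8 CPM at E15.5, fell by 0.44 ± 0.05 on the log2 scale (edgeR adjusted p = 6.04e-08). Against batch 1 embryos alone the difference was -0.81 ± 0.05, and against batch 2 embryos, at 64.8 to 71.5 CPM, it was -0.06 ± 0.06 (edgeR adjusted p = 0.376). Phlda3 at E15.5, at 37.7 to 39.0 CPM, lay above all batch 1 kidneys and below all batch 2 kidneys of E11.5. Its difference of 0.14 ± 0.07 did not pass (edgeR adjusted p = 0.0784). It was 0.40 ± 0.07 against batch 1 (edgeR adjusted p = 0.000158), -0.09 ± 0.06 against batch 2 (edgeR adjusted p = 0.173) and 0.18 ± 0.06 without wildtype replicate 6 (edgeR adjusted p = 0.0173). Eda2r likewise gave -0.08 ± 0.16 with all embryos (edgeR adjusted p = 0.672), -0.46 ± 0.13 against batch 1 (edgeR adjusted p = 0.00729) and 0.13 ± 0.16 against batch 2 (edgeR adjusted p = 0.4999). Mdm2, at 61.6 to 67.7 CPM, did not pass with all embryos (-0.12 ± 0.06; edgeR adjusted p = 0.0649) and passed against batch 1 (-0.19; edgeR adjusted p = 0.0268). Trp53 fell with all embryos (-0.44 ± 0.11; edgeR adjusted p = 0.00161). Its E15.5 levels, at 44.3, 48.0, 42.4 and 55.3 CPM, were below all batch 1 kidneys of E11.5, at 83.1 to 96.1. They lay among or above the batch 2 kidneys of E11.5, at 41.4 to 43.0, with a mean of 47.5 against 42.3. The fall was thus seen against batch 1 and not against batch 2.

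**Figure D4:**
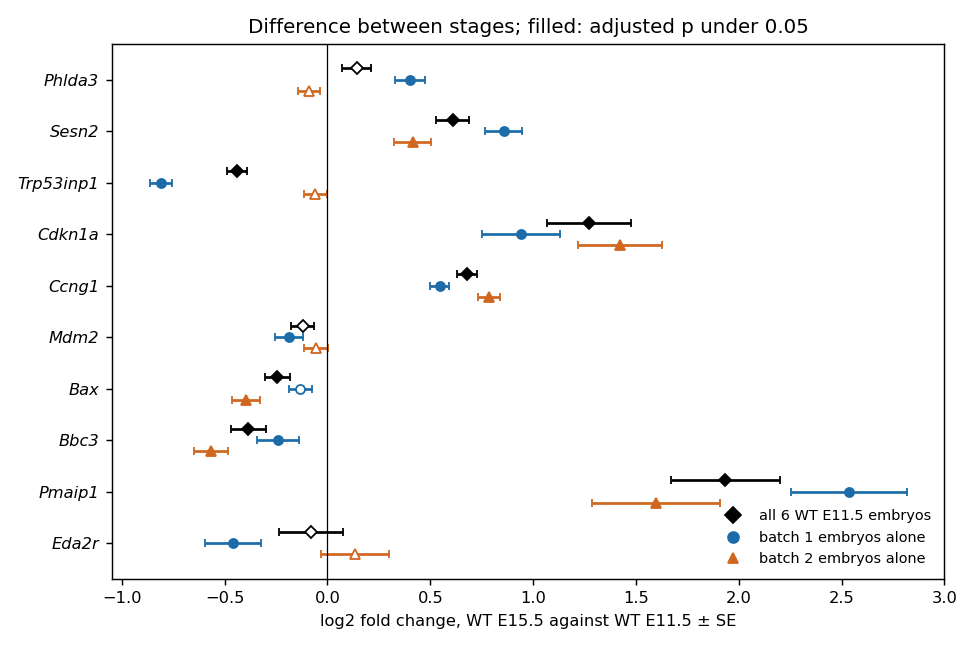
Log2 fold change ± SE (horizontal axis) between wildtype E15.5 and wildtype E11.5 kidneys for each of the 10 genes (rows), with all 6 E11.5 embryos, with those of batch 1 alone and with those of batch 2 alone; filled symbols passed an adjusted p of 0.05 in edgeR. Cdkn1a, Ccng1, Sesn2 and Pmaip1 lie right of 0 in all 3 fits, whereas Trp53inp1 is at -0.81 against batch 1 and -0.06 against batch 2.

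Other genes of the pathway moved in both directions between the stages. In that comparison 66.1% of all genes were called, so counts near that share are not particular to a list. Of 28 other p53 targets 9 rose and 9 fell, with a median of 0.02 against 0.00 for all genes. The lysosomal regulator gene Dram1 rose (2.55 ± 0.29; edgeR adjusted p = 6.1e-08), as did the death receptor gene Fas (1.19 ± 0.29), and the adenylate kinase gene Ak1 fell (-1.19 ± 0.09). Perp, an epithelial adhesion gene, gave 1.68 ± 0.69 with all embryos and 3.17 ± 0.28 without wildtype replicate 6, where it was at 24.6 CPM. Its call with all embryos (edgeR adjusted p = 0.0359) was lost in 7 of 10 fits that left out 1 specimen. Of 20 regulators 4 rose and 9 fell, the acetyltransferase gene Ep300 among the latter (-0.83 ± 0.10). In the BCL2 family 4 of 12 rose and 5 fell, the latter including the BH3-only genes Bcl2l11 (-1.35 ± 0.08) and Hrk (-1.32 ± 0.25). Of 4 other kinase inhibitors Cdkn2c (1.60 ± 0.15) and Cdkn1b (0.38 ± 0.04) rose, the direction of Cdkn1a. Of the 13 ATF4 genes 7 rose and 3 fell, with the serine synthesis genes Phgdh (1.27 ± 0.09) and Psat1 (0.76 ± 0.07) beside Sesn2 among the former and Trib3 (-1.05 ± 0.27) among the latter. Cell type markers moved with stage too, beside the same 66.1% of all genes. Lower at E15.5 were 5 of 5 neuronal, 5 of 6 erythroid and 3 of 5 stromal markers. Higher were 6 of 7 ureteric bud and 3 of 4 endothelial markers. Of 10 nephron progenitor markers 4 rose and 4 fell, and of 6 macrophage markers 2 rose and 1 fell. Of 5 proliferation markers 2 rose and 2 fell, and of 3 tested skeletal muscle markers 2 fell. Their part in the members' changes was not tested.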

How the data were processed

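Unnormalized read counts, as deposited by the authors, are whole numbers for each gene symbol in 33 libraries, beside a gene length column. STAR 2.4.0h1, featureCounts 1.4.6 and build mm10 are named in the submitters' processing notes. Strand handling, annotation and treatment of multiply mapped reads are not given in the sources used here. RNA came from snap-frozen kidneys with a spin-column kit, per the labels' protocols. Runs of the same specimen were summed, which left 24 specimens, and 0 columns were unused. Nothing in the labels makes specimens separate animals: p-values reflect only how these specimens vary, which may be technical.

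The test was that of edgeR 4.0.16, run with limma 3.58.1 under R 4.3.3: filterByExpr (minimum count 10, total 15), trimmed-mean scaling, quasi-likelihood F test, Benjamini-Hochberg adjustment at 0.05 over all genes tested, no fold threshold. All 10 members passed the filter. For E11.5, genotype, sex and batch were fitted over 16 specimens. The replicate number of E11.5 titles equals the batch, so batch is its replicate block. For E15.5, genotype and sex were fitted, and comparisons between stages used all specimens with group, sex and batch. Specimens run in both batches were coded 1.5. SE is the log2 coefficient over the root of F. CPM use the scaled library sizes, and CPM per kilobase the deposited lengths. Ribosomal shares count 360 ribosomal RNA symbols. The tests were checked on simulated counts with 200 changed genes. DESeq2 1.42.0 and the alternatives under the closing section were also run.

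Positions are from GENCODE vM21 (mm10), and 3 list symbols were matched through older symbols. Promoters are RefSeq's. The members and the gene and marker lists were chosen with earlier results of these data known. Named beside the members, Trp53 and Mdm4 are always given, then, from each list, the called genes with the largest changes (at most 4), and the 3 genes most like the member with the lowest p in knockout kidneys.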

Additional observations from a re-analysis of the deposited data

How the results depend on the processing

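In knockout against wildtype kidneys, 2 of 10 members were called, and 1 (Phlda3) without the replicate block (batch left out), in batch 2 alone, in embryos at or under 5% ribosomal RNA and with only the 2 groups in the fit, and 0 in batch 1 alone or with the title prefix as a block. Leaving out 1 embryo gave 1 to 3 calls, 1 without knockout replicate 5. In knockout against heterozygous kidneys the 1 call became 0 without the replicate block, in either batch alone, with the prefix block and without knockout replicate 5, so leave-one-out counts ran from 0 to 1. Phlda3 turned to 0.0889 there with the prefix block, a fit without a batch term. Between stages 7 calls became 5 without the replicate block, and leaving out 1 embryo gave 7 to 8. They were 9 with only the E11.5 embryos of batch 1 and 6 with those of batch 2, alternatives chosen after seeing the data. Counts in the heterozygous comparisons were 0 in all settings run. DESeq2, its size factors in edgeR, no filter, leaving sex out and removing ribosomal genes left every count within 1.5 times. In each batch alone fewer embryos enter, and in batch 1 the heterozygous embryos were all male and the knockout embryos all female. No paired analysis was possible at E15.5 because the genotypes share no label number. Precision of Cdkn1a and Pmaip1 at E11.5 is limited by low counts, and of heterozygous effects between stages by the spread at E11.5.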
